A study of Mus musculus with 15 samples.

Results

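The comparison of 72 h of LPS with control described how mouse bone marrow-derived macrophages (BMDMs) differed across genes after a long exposure to lipopolysaccharide. It used 6 of the 15 samples of the study, namely the 3 samples stimulated with LPS for 72 h (3 days) and the 3 control samples, which received neither LPS nor RANKL. Expression had been measured by RNA-seq as FPKM, the fragments of a gene scaled to its transcript length and to the mapped fragments of the sample, in 20089 genes. Of these, 11743 reached a mean of 0.1 FPKM over the 15 samples and were tested on the log2(FPKM + 0.1) scale, on which the change of genes with low values is understated. A gene was called higher where its fold change was above 1.5, or lower where it was below 0.66, with a limma p-value adjusted by Benjamini-Hochberg under 0.05.

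Every group came from wild-type C57BL/6 mice and had received M-CSF, the growth factor that turns marrow cells into macrophages. The labels give 3 days of M-CSF, and the methods of the study give 4 days at 50 ng/mL, in cells from mice 4 to 8 weeks old, with RANKL and LPS at 100 ng/mL. The other groups, of 3 samples each, received LPS for 4 h, RANKL for 4 h or RANKL for 72 h. RANKL is the cytokine that turns macrophages into osteoclasts, the cells that resorb bone. No group kept for 72 h in M-CSF alone was analysed here, so the effect of LPS and that of 72 h in culture cannot be told apart, and RANKL 72 h was the only other group of the same time. The labels do not say whether the replicates of a group came from separate mice or cultures, so the p-values measure only the spread between these samples, which may be technical.

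LPS is a component of the outer wall of Gram-negative bacteria, which CD14 hands to the receptor complex of TLR4 and MD-2 on the macrophage surface. The adaptors MyD88 and TRIF then switch on NF-κB, which drives inflammatory cytokines, and IRF3, which drives interferon-β and, through its receptor, the interferon-stimulated antiviral genes. Macrophages kept under LPS make inhibitors of the pathway, and many inflammatory genes then respond less to the same stimulus, a state known as endotoxin tolerance.

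Depth was similar throughout, at 18306487 to 20330238 fragments a sample on the genes listed. The 3 LPS 72 h samples were not alike. On the log2 scale, replicates 1 and 2 correlated at r = 0.990 across genes, whereas replicate 3 correlated with them at 0.963 and 0.970 and lay closer to control (r of 0.939 to 0.947, against 0.910 to 0.923 for the other two). Of 2119 genes called higher without replicate 3, that replicate was on the same side of the control mean in 1776 and nearer to control in 1679, with a median of 47.2% of the change. Of 1840 genes called lower without it, the numbers were 1746 and 1406, with a median of 63.3%. These genes were picked on replicates 1 and 2, so a replicate left out would be nearer to control in part for that reason. The same share was not computed for replicate 1 or 2. Since the samples differed, results are given with all 3 of them. They are given without replicate 3 for a part of the lists and genes where that changed a call.

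After 72 h of LPS, 1522 genes were called higher (13.0% of those tested) and 1690 lower (14.4%), or 27.4% in all. Without LPS 72 h replicate 3 the counts were 2119 (18.0%) and 1840 (15.7%), or 33.7% in all. The 3 LPS 72 h values lay above all 3 control values in 2711 genes (23.1%) and below them in 2466 (21.0%). The median change over all genes tested was 0.08 on the log2 scale. Once every sample was centred on its median gene, the split of the called genes was 1212 higher and 1887 lower.

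**Figure D1:**
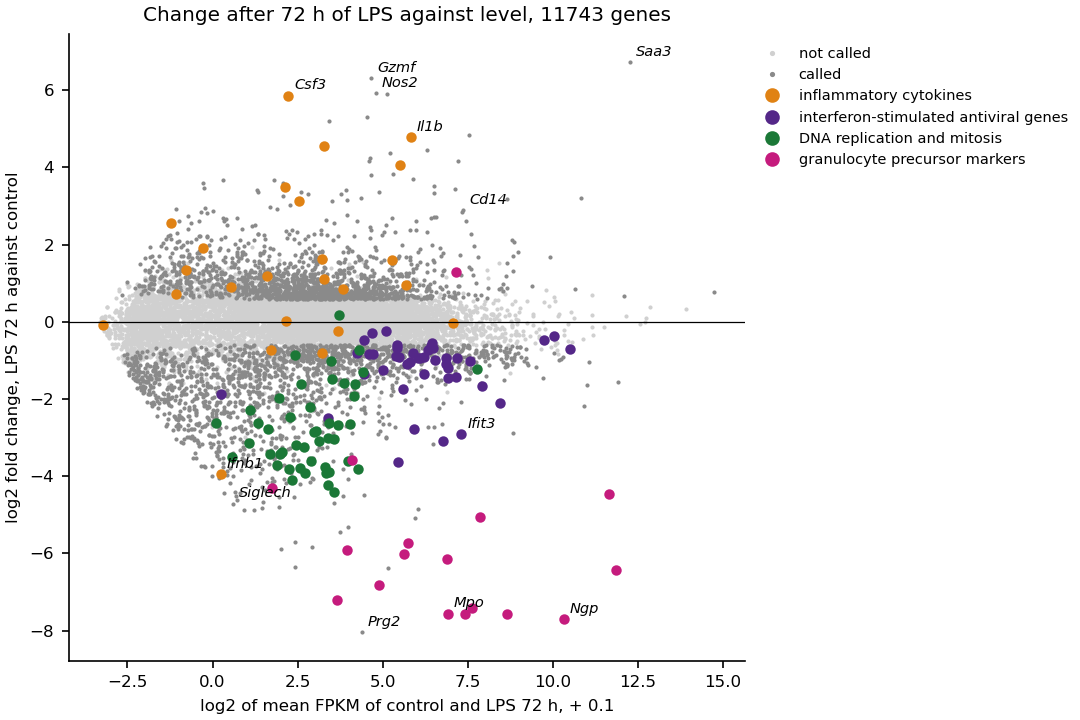
Log2 fold change of LPS 72 h against control (vertical axis) against the log2 of the mean FPKM of both groups (horizontal axis) for the 11743 genes tested, each point 1 gene, with 4 gene lists in colour. Cytokines spread up to 5.86, cell cycle genes lie almost all below 0, and granulocyte precursor markers reach -7.70.

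The acute phase gene *Saa3*, which encodes serum amyloid A3 and lies at chr7:46711998-46719615 (GRCm38.p6), had the largest fitted rise of the genes tested. Its FPKM was 141, 106 and 46 in the control samples and 6740, 8836 and 13570 after 72 h of LPS, a log2 change of 6.72 ± 0.39 (SE, n = 3 per group, adjusted p = 2.61e-07). The groups were far apart, and replicate 3 was the highest of the LPS samples. *Nos2* (chr11:78920787-78960226), the inducible nitric oxide synthase, was at 1.58, 0.49 and 0.366 FPKM in control and 31.9, 99.2 and 31.9 after 72 h, a log2 change of 5.92 ± 0.51 (adjusted p = 5.91e-06). *Ptges* (chr2:30889471-30931020), the terminal enzyme of prostaglandin E2 synthesis, rose from 1.06, 0.965 and 0.946 FPKM to 36, 70.9 and 30.1 (5.29 ± 0.28, adjusted p = 1.79e-07). The values of both enzymes were at least an order of magnitude above every control value.

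The other genes among the 15 largest rises, taken among genes that did not overlap between the groups and reached a mean of 1 FPKM, included the cytokines *Csf3*, *Il1b* and *Il6*, the chemokine *Cxcl3*, the signalling inhibitor *Socs3*, *Ptgs2*, the protease inhibitors *Serpinb2* and *Stfa3*, the formyl peptide receptor *Fpr1* and the uncharacterised *2010005H15Rik*. *Fpr1* was at 17.3, 9.96 and 21.8 FPKM in control and 235, 313 and 297 after LPS (4.16 ± 0.28). *Gzmf* and *Gzmg*, granzymes of activated lymphocytes, were also among the 15, but unevenly so. *Gzmf* was at 0.102, 0.0516 and 0.385 FPKM in control and 1.24, 65.9 and 83.4 after 72 h of LPS, and *Gzmg* was at 0.409, 0 and 0.989 and 1.03, 119 and 86.4. Replicate 1 lay just above control in both, and both calls were lost with limma voom on fragment numbers. The granzyme genes are near-identical neighbours whose fragments may have been divided among them, as may those of the *Stfa*, *Saa*, *Ifit* and *H2* genes.

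The 15 largest falls were led by granule genes of granulocyte precursors. *Prg2*, the major basic protein of eosinophils (chr2:84980461-84983632), was at 57.4, 29.2 and 37.6 FPKM in control and 0, 0.0579 and 0.119 after LPS (-8.04 ± 0.42, adjusted p = 1.79e-07). *Mpo* (chr11:87793784-87804412), the myeloperoxidase of neutrophil granules, was at 224, 313 and 174 and 0.387, 0.343 and 8.32 (-7.56 ± 0.83, adjusted p = 2.53e-05). No control value overlapped with an LPS 72 h value, and in *Mpo* replicate 3 kept the most. In bulk RNA, fewer cells of a type and less RNA per cell cannot be told apart. *Slco2b1*, an organic anion transporter that belongs to none of the lists, fell from 5.67, 8.53 and 9.2 FPKM to 0.0266, 0.0183 and 0.0473, alike in the 3 replicates (-5.89 ± 0.33).

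**Figure D2:**
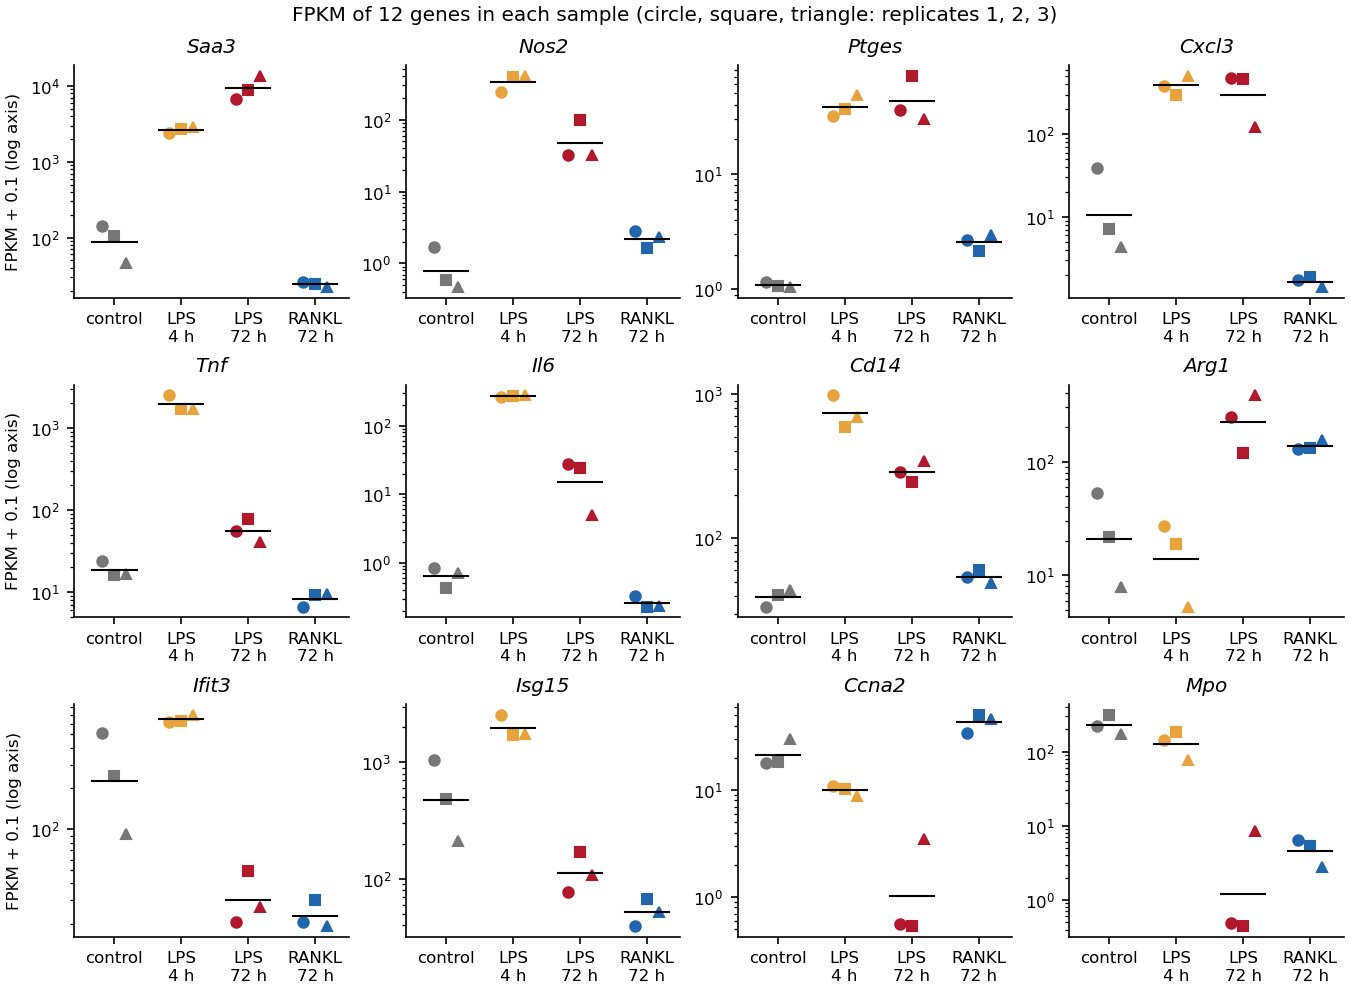
FPKM + 0.1 on a log axis for 12 genes in each control, LPS 4 h, LPS 72 h and RANKL 72 h sample, with a line at the mean of the log2 values. *Saa3* and *Arg1* have their highest mean at 72 h of LPS, *Tnf*, *Il6* and *Nos2* lie between control and 4 h, and *Ifit3*, *Isg15*, *Ccna2* and *Mpo* lie below every control sample.

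The genes were then read in 22 lists of known function and 10 of cell type markers, of which 37 entries were not tested because they were absent from the table or under the minimum. Promoters of some members are given first, as a description of their letters, and the part of these letters in any change was not tested. The 250 bases before each annotated start were taken from RefSeq (GRCm38.p6), where 27025 genes had an entry, and searched on both strands. Where a gene had several entries, a match in any of them counted, and the entry printed was the first that held the letters. The interferon-stimulated response element was searched as GAAA, any 2 bases and GAAA again, the NF-κB site as GGG, any 2 bases and TTTCC, and for cell cycle genes the letters TTTGAA, found at the cell cycle homology region, and the CCAAT box. Overlapping matches were counted separately. A match describes the letters and does not show that a factor bound there.

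Promoters of 3 genes with the interferon-stimulated response element are shown first, since they carried the same letters and differed in level after 72 h of LPS. *Ifit3* (chr19:34583279-34583528, plus strand) and *Isg15* (chr4:156200819-156201068, minus strand) were called lower, and *Gbp2* (chr3:142620413-142620662, plus strand) was not called. Sequences run 5′ to 3′ on the strand of the gene, the matches are in capitals, and in *Ifit3* and *Gbp2* the element is read on the opposite strand.
Ifit3: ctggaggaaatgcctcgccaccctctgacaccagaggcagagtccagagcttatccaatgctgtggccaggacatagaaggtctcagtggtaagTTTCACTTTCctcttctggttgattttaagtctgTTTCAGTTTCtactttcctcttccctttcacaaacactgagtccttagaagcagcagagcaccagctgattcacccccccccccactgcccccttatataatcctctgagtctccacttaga
Isg15: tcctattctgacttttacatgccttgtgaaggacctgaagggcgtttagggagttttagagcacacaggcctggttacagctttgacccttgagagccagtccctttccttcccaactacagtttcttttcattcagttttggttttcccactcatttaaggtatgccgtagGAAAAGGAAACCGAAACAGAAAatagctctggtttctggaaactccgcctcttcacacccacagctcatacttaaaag
Gbp2: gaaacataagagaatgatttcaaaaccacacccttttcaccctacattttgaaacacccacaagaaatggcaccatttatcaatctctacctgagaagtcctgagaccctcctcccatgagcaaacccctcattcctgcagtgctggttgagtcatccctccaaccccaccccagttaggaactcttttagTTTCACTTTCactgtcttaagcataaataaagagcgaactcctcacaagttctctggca

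The first match began 156 bases before the start of the entry shown in *Ifit3*, 78 in *Isg15* and 59 in *Gbp2*. The *Ifit3* entry lies inside the range given for the gene (chr19:34583119-34588982), so its start is not the first base of that range. The element was present in 17 of the 35 interferon-stimulated antiviral genes with an entry and in 9 of 10 guanylate-binding and immunity-related GTPases. It was present in 3.53% of the 8973 genes tested that had an entry and in 3.46% of all 27025. Of the 17 antiviral genes with a match, 11 were called lower, beside 26 of the 43 in the whole list, and of the 9 GTPases none was called in either direction. Of all 317 genes tested with the element, 75 were called lower and 41 higher, where 14.4% of all genes tested were called lower and 13.0% higher.

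Next are *Cxcl3* (chr5:90785851-90786100, plus strand) and *Il6* (chr5:30012864-30013113, plus strand), 2 of the genes that rose most, with the NF-κB site in capitals.
Cxcl3: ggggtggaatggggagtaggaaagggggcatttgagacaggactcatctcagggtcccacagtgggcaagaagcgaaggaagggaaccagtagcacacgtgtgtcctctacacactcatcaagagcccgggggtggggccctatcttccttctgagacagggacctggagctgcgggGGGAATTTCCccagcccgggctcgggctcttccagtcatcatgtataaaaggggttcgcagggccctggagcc
Il6: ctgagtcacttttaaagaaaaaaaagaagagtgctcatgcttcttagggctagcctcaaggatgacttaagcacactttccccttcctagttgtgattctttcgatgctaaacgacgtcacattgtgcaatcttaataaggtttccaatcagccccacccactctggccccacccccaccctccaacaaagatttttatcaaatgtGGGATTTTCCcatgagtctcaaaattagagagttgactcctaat

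The site began 73 bases before the start in *Cxcl3* and 44 in *Il6*. It was found in 3 of 9 CXC chemokines (*Cxcl1*, *Cxcl2* and *Cxcl3*, 3 called higher), in 2 of 16 inflammatory cytokines (*Csf1* and *Il6*, 1 called higher), in 5 of 24 feedback inhibitors (*Cyld*, *Il1rn*, *Nfkb2*, *Nfkbia* and *Tnfaip3*, 2 called higher) and in 2 of 9 CC chemokines (0 called). Of all 171 genes tested with the site, 31 were called higher and 21 lower, where 13.0% of all genes tested were called higher and 14.4% lower. The share was 1.91% of the genes tested and 1.65% of all promoters.

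The last are *Kif11* (chr19:37376132-37376381, plus strand), a motor of the mitotic spindle, and *Cdc20* (chr4:118437344-118437593, minus strand), an activator of the anaphase-promoting complex. Both fell, and both carried TTTGAA and CCAAT, in capitals, which in *Kif11* are read on the opposite strand.
Kif11: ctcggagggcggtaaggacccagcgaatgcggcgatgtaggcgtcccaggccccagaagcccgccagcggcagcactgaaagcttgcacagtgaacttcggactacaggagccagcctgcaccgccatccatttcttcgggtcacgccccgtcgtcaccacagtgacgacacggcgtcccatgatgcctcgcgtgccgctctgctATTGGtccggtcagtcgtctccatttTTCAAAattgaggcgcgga
Cdc20: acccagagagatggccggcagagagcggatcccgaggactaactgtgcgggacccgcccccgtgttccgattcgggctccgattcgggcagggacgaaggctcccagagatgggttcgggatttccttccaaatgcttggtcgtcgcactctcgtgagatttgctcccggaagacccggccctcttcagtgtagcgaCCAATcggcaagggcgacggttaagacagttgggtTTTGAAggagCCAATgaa

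TTTGAA began 19 bases before the start in *Kif11* and 18 in *Cdc20*. It was in 10 of the 37 DNA replication and mitosis genes with an entry, against 12.8% of the genes tested and 18.3% of all promoters. CCAAT was in 29 of the 37, against 40.3% and 37.5%. Of all 1148 genes tested with TTTGAA, 214 were called lower and 141 higher. Of the 3612 with CCAAT, 550 were lower and 443 higher. The shares over all genes tested were 14.4% lower and 13.0% higher.

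In the receptor chain for LPS, *Cd14* was called higher and *Tlr4* was not called. *Cd14*, the co-receptor that binds LPS, was at 33.4, 40.5 and 43.7 FPKM in control and 289, 247 and 340.4 after 72 h (2.89 ± 0.19, adjusted p = 6.57e-07). *Tlr4* was at 18, 22.9 and 19.8 and 16, 14.9 and 14.5 FPKM, lower in all 3 samples, with a log2 difference of -0.41 ± 0.14 (adjusted p = 0.0387) that did not reach the fold required. *Ly96*, which encodes MD-2, differed by 0.42 ± 0.22 and was not called with all samples (adjusted p = 0.151), but was called higher without LPS 72 h replicate 3 (0.69). *Tlr2*, the receptor for bacterial lipopeptides, rose by 1.59 ± 0.24.

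Of 27 genes of the LPS receptor and TLR pathway, 6 were called higher and 7 lower, with a median log2 change of 0.03. Without LPS 72 h replicate 3 the counts were 7 and 6. The count of lower members fell to 3 without LPS 72 h replicate 1, and to 4 without LPS 72 h replicate 2, control replicate 1 or control replicate 2. The lower genes included *Lbp*, the protein that carries LPS to CD14, at 13.2, 7.23 and 9.03 FPKM in control and 0.614, 0.731 and 2.9 after LPS (-2.99 ± 0.47). *Cd180*, a TLR4 homologue that lacks the signalling domain, fell by 1.21 on the log2 scale. The adaptor *Myd88* (0.05 ± 0.14) and *Ticam1*, which encodes TRIF (-0.28 ± 0.24), were not called.

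Feedback inhibitors of TLR signalling were called higher more often than lower. Of 28 members, 12 were called higher and 4 lower, with a median of 0.57. Without replicate 3 the counts were 17 and 3. *Socs3*, an inhibitor of cytokine receptor signalling, was at 5.6, 2.72 and 2.38 FPKM in control and 69.6, 79.6 and 62.5 after LPS (4.36 ± 0.31, adjusted p = 1.17e-06). *Irak3*, which encodes the inhibitory kinase-like protein IRAK-M, was at 9.32, 9.41 and 10.8 and 45.8, 52.3 and 75.2 (2.51 ± 0.17, adjusted p = 8.59e-07). In both genes every LPS sample lay far above every control sample, and in *Irak3* replicate 3 was the highest.

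The NF-κB inhibitors *Nfkbia* (1.90 ± 0.21), *Nfkbie* (1.89 ± 0.30) and *Nfkbiz* (2.13 ± 0.22) rose, as did the MAP kinase phosphatases *Dusp1* (1.70 ± 0.20) and *Dusp16* (2.28 ± 0.19). *Tnfaip3*, the deubiquitinase A20, was not called (0.38 ± 0.17, adjusted p = 0.109), though it was without replicate 3 (0.60). *Il10*, the anti-inflammatory cytokine, was at 5.7, 4.74 and 2.72 FPKM in control and 4.64, 3.9 and 4.22 after LPS, a difference of 0.02 ± 0.33 (adjusted p = 0.977). The members called lower were *Il1r2*, the decoy receptor of interleukin-1 (-3.01 ± 0.67), *Sigirr*, *Atf3* and *Trem2*.

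Inflammatory cytokines were above control after 72 h. Of 24 members, 14 were called higher and 1 lower, with a median of 1.14, against a median of 0.08 for all genes tested. Without LPS 72 h replicate 3, 16 were higher and 1 lower, and without control replicate 3, 3 were lower. The count of higher members was 11 without LPS 72 h replicate 1 or 2 or control replicate 2 or 3. It was also 11 once samples were centred on their median gene. *Csf3*, which encodes G-CSF, rose from 0.034, 0.0171 and 0.0731 FPKM to 10.9, 12.8 and 3.6 (5.86 ± 0.40, adjusted p = 9.48e-07). *Il1b* rose from 7.11, 2.2 and 2.66 to 159.5, 118 and 50.3 (4.78 ± 0.48, adjusted p = 1.44e-05), and *Il6* from 0.734, 0.329 and 0.613 to 27.1, 24.2 and 4.92 (4.55 ± 0.50, adjusted p = 2.56e-05). In each of these 3 genes replicate 3 was the lowest of the LPS samples and still above every control sample.

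*Tnf* rose less, from 23.5, 15.8 and 16.5 FPKM to 55, 78.2 and 41 (1.61 ± 0.24, adjusted p = 2.13e-04). *Inhba*, a subunit of activin A, and *Il1a* also rose (3.13 ± 0.55 and 4.06 ± 0.48). *Ifnb1*, interferon-β itself, was the member called lower. It was at 3.87, 1.89 and 0.649 FPKM in control and 0.061, 0 and 0 after LPS (-3.95 ± 0.73, adjusted p = 0.00103), so the control samples held more of it than the stimulated ones. *Il12b* was not called with all samples (0.90 ± 0.94), and its LPS 72 h values were 2.92, 3.26 and 0.1 FPKM, with replicate 3 below the controls (0.539, 1.07 and 0.319). Without that replicate it was called higher (2.23).

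Of 11 CXC chemokines, 5 were called higher and 1 lower (median 0.83), the latter being *Ppbp*, the chemokine of platelets. The count of lower members was 0 without LPS 72 h replicate 1 or 2 or control replicate 1 and 2 without control replicate 3. Of the ligands of the neutrophil receptor CXCR2, *Cxcl1*, *Cxcl2* and *Cxcl3* rose by 3.80 ± 0.32, 3.69 ± 0.47 and 4.83 ± 0.81, whereas *Ppbp*, another of them, fell from 169, 54.4 and 48.7 FPKM to 10.7, 10.7 and 45.5 (-2.14 ± 0.70). The call of *Ppbp*, which is also in the list of erythroid and megakaryocyte markers, was lost without the same samples (-1.79 without either LPS 72 h replicate and -1.57 without control replicate 1). *Cxcl3* (chr5:90786101-90788093) was at 38.9, 7 and 4.17 FPKM in control and 472, 464 and 124 after LPS, with replicate 3 the lowest of the LPS samples and control replicate 1 the highest of the controls. *Cxcl10*, the interferon-induced ligand of CXCR3, was at 114, 24.1 and 11.8 FPKM in control and 4.56, 17.4 and 6.5 after LPS. The groups overlapped, and the difference of -1.98 ± 0.82 was not called (adjusted p = 0.0754), but was without control replicate 3 (-2.69).

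Of 14 CC chemokines, 2 were called higher and 2 lower (median -0.29). Both counts were 1 without LPS 72 h replicate 2 or control replicate 2, that of higher members also without LPS 72 h replicate 1 and that of lower members without control replicate 1. *Ccl5*, which attracts T cells and monocytes, rose from 757, 359.7 and 133 FPKM to 4067, 3705 and 1858 (3.20 ± 0.59, adjusted p = 0.00105). *Ccl2*, the main monocyte chemokine, was already high in control at 858, 948 and 619 FPKM, and was at 766, 1304 and 1173 after LPS (0.41 ± 0.34, adjusted p = 0.369). *Ccl4* fell from 145, 162 and 81.2 to 55.3, 81.1 and 51.4 FPKM (-1.01 ± 0.27), a call lost without control replicate 2 (-0.82).

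The interferon-stimulated antiviral genes were below control after 72 h of LPS. Of 43 members, 26 were called lower and none higher (limma), with a median of -0.94. At an unadjusted p under 0.05, 31 were lower and 0 higher, and limma voom on fragment numbers called 24 lower and 0 higher. *Ifit3* (chr19:34583119-34588982), an antiviral protein induced by interferon, was at 516, 247 and 91.7 FPKM in control and 20.7, 49.4 and 26.7 after LPS (-2.91 ± 0.71, adjusted p = 0.00624). *Cmpk2*, a mitochondrial nucleotide kinase induced by interferon, was at 209, 78.6 and 33.8 and 7.28, 22.5 and 10.1 (-2.79 ± 0.73, adjusted p = 0.00954). *Isg15*, a ubiquitin-like modifier, was at 1043, 488 and 213 and 76.2, 169 and 108 (-2.10 ± 0.61, adjusted p = 0.0169).

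The control samples were themselves uneven in these genes. In the summed level of the list, control replicate 1 was at 11990 FPKM, replicate 2 at 8530 and replicate 3 at 5443, and the LPS 72 h samples were at 3676, 4808 and 5151, below every control sample. The RANKL 4 h samples ran in the same order as control, at 9674, 6709 and 3963 FPKM, whereas LPS 4 h was at 18860, 17850 and 18090. The count of 26 fell to 15 without control replicate 1 and to 16 without LPS 72 h replicate 1, and the call of *Isg15* was lost under both (-1.53 and -1.82). Of the factors that carry the interferon signal, these were not called: *Stat2* (-0.62 ± 0.30), *Irf9* (-0.24 ± 0.16) and *Irf7* (-0.47 ± 0.29). *Irf7* was called lower without control replicate 3 (-0.80).

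The guanylate-binding proteins and immunity-related GTPases, which interferon-γ also induces and which attack the compartments of intracellular microbes, gave no calls with all samples and no replicate block. None of 16 was called in either direction by that limma fit, with a median of -0.04. With the replicate numbers added to the fit as a block, calls included *Gbp4* (1.67), *Gbp10* (1.02) and *Irgm1* (-0.86). At an unadjusted p under 0.05, 1 was higher and 2 were lower, limma voom called 1 higher, and without replicate 3 *Gbp4* (2.29) and *Gbp10* (1.43) were called higher. Without control replicate 1 or 3, 2 members were called, higher in the first case and lower in the second. *Gbp2* was at 117, 33 and 18.1 FPKM in control and 74.9, 139 and 28.6 after LPS, ranges that overlapped (0.70 ± 0.74, adjusted p = 0.484). *Irgm1*, a regulator of autophagy, was at 179, 129.8 and 86.5 and 60.4, 95.1 and 58.6 (-0.86 ± 0.35, adjusted p = 0.0711), and was called lower without control replicate 3 (-1.13).

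**Figure D3:**
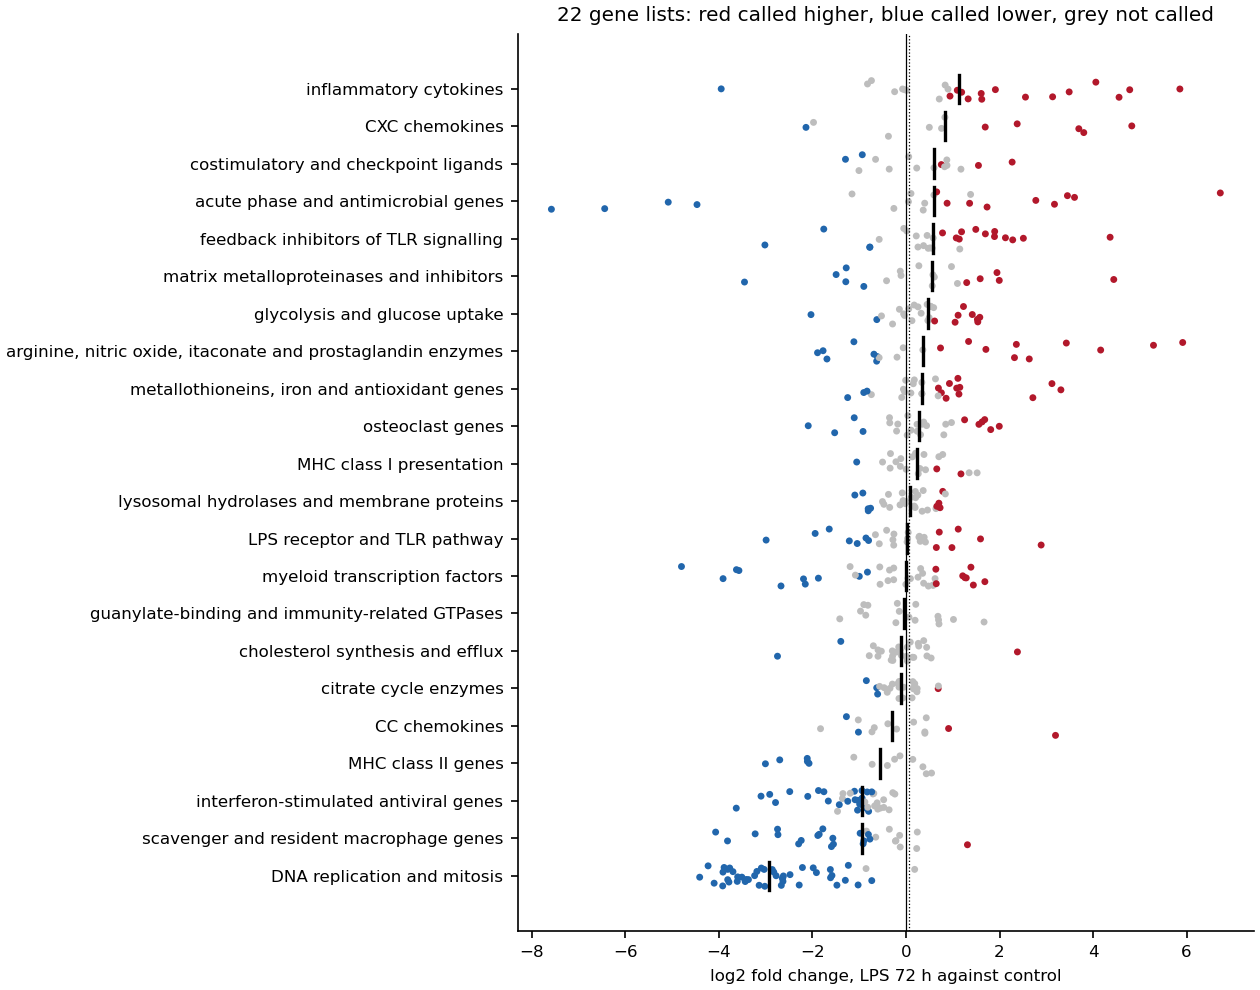
Log2 fold change of LPS 72 h against control for the tested members of 22 gene lists, each point 1 gene (red called higher, blue called lower, grey not called), with a bar at the median of each list, ordered by it, and a dotted line at the median of all genes tested (0.08). The medians run from 1.14 in inflammatory cytokines to -2.94 in DNA replication and mitosis.

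Antigen presentation genes were read by class. Of 14 MHC class II genes, 5 were called lower and none higher by limma (median -0.56), and 3 lower by limma voom. Without 1 of the samples the count of 5 was 2 or 3, except without control replicate 3. At an unadjusted p under 0.05, 5 were lower and 2 higher. *Ciita*, the transactivator of class II genes, was low throughout, at 0.366, 0.543 and 0.253 FPKM in control and 0.00625, 0.0259 and 0.00667 after LPS (-2.07 ± 0.50, adjusted p = 0.00579), and its call was lost with 1 in place of 0.1 added before the log. *H2-Aa* was at 113, 57.8 and 16.3 and 6.9, 6.13 and 4.68 FPKM (-3.00 ± 0.93). The invariant chain *Cd74* was at 315, 168 and 66.3 and 45.5, 34.5 and 27.7 (-2.11 ± 0.74). Both had control values that ranged widely. The call of *H2-Aa* was lost without control replicate 1 (-2.38) or 2 (-2.86) or LPS 72 h replicate 1 (-3.12) or 2 (-3.04), and that of *Cd74* without any 1 of the samples except control replicate 3, with values of -1.58 to -2.29.

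Of 20 genes of MHC class I presentation, 2 were called higher and 1 lower (median 0.23). The count of 2 was 0 without LPS 72 h replicate 1 or 2 or control replicate 2 or 3, 5 without LPS 72 h replicate 3, and 6 without control replicate 1. Among the 2 was *H2-D1*, at 4246, 2863 and 3077 FPKM in control and 5762, 4916 and 5200 after LPS (0.66 ± 0.23), a call lost once samples were centred on their median gene (0.58), without control replicate 2 (0.55) or 3 (0.60) and without LPS 72 h replicate 1 (0.60) or 2 (0.71). Of 15 costimulatory and checkpoint ligands, 3 were called higher and 2 lower (median 0.60). *Cd274*, which encodes the checkpoint ligand PD-L1, rose from 110.5, 45.2 and 42.2 FPKM to 383, 443 and 140.2 (2.27 ± 0.42, adjusted p = 0.00102). *Cd80*, a ligand of CD28 and CTLA-4, rose from 5.24, 3.77 and 4.58 to 17, 11.8 and 11.8 (1.55 ± 0.17, adjusted p = 2.44e-05). *Cd86*, the other ligand of these receptors, was not called (0.87 ± 0.45, adjusted p = 0.144).

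Enzymes of arginine, nitric oxide, itaconate and prostaglandin metabolism changed in both directions, with 10 of 21 called higher and 7 lower (median 0.36). Without LPS 72 h replicate 1 or 2, 4 were lower. *Arg1* (chr10:24915207-24927470), the arginase that competes with NOS2 for arginine, rose as *Nos2* did. It was at 52.6, 21.5 and 7.85 FPKM in control and 246, 119.9 and 382 after LPS, with wide ranges that did not overlap (3.43 ± 0.75, adjusted p = 0.00334). *Arg2*, the mitochondrial arginase (2.64 ± 0.64), and the arginine transporter *Slc7a2* (2.36 ± 0.41) rose too. *Acod1*, the enzyme that makes itaconate, was at 67.9, 17.6 and 12 FPKM in control and 93.2, 173 and 112 after LPS (2.32 ± 0.51, adjusted p = 0.0032).

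The 2 cyclooxygenases moved in opposite directions. *Ptgs2*, the inducible form, rose from 3.71, 1.97 and 1.66 FPKM to 48.7, 62.5 and 25.9 (4.16 ± 0.55), and *Ptgs1*, the constitutive form, fell from 11.8, 6.4 and 11.4 to 1.74, 2.1 and 4.23 (-1.89 ± 0.36). The other members called lower included *Hpgds*, the prostaglandin D synthase (-1.11 ± 0.22), and *Alox5*, the enzyme that starts leukotriene synthesis (-1.77 ± 0.52). The call of *Alox5* was lost without LPS 72 h replicate 1 (-1.54) or 2 (-1.46) or control replicate 3 (-1.29).

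Acute phase and antimicrobial genes changed in both directions. Of 21, 9 were called higher and 4 lower (median 0.60), or 7 and 5 without LPS 72 h replicate 3. Besides *Saa3*, *Slpi*, a protease inhibitor with antibacterial activity, rose from 101, 49.2 and 76.4 FPKM to 380.4, 598 and 1230 (3.17 ± 0.50). *Orm2* (3.45 ± 0.46) and *Saa1* (3.60 ± 0.48) rose from values at or near 0. The 4 lower genes, *Camp*, *S100a8*, *S100a9* and *Pglyrp1*, are granule or cytosolic proteins of neutrophils, and *Camp*, *S100a8* and *S100a9* are also in the list of granulocyte markers.

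Genes of metal handling and the antioxidant response were raised more often than lowered (11 higher and 3 lower of 27, median 0.34). *Slc7a11*, the cystine transporter that feeds glutathione synthesis, rose from 1.93, 1.97 and 3.07 FPKM to 27.8, 33.6 and 13.8 (3.31 ± 0.33, adjusted p = 1.34e-05). *Sod2*, the mitochondrial superoxide dismutase, rose from 35.2, 26.9 and 16 to 140.1, 190.3 and 162 (2.71 ± 0.25), and the metallothionein *Mt2* by 3.12 ± 0.45. The iron importer *Tfrc* fell by 1.25, and the iron exporter *Slc40a1* by 0.90, a call lost without LPS 72 h replicate 2 (-0.71) or control replicate 2 (-0.73).

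Most genes in the list of scavenging and resident macrophages fell, a list that also holds the monocyte receptor *Ccr2*. Of 28, 18 were called lower and 1 higher (median -0.95), and without replicate 3 the counts were 20 and 1. *Ccr2*, the receptor for CCL2 on recruited monocytes, was at 19.7, 23.6 and 35.7 FPKM in control and 1.28, 0.954 and 4.06 after LPS (-3.81 ± 0.53, adjusted p = 1.38e-04). *Cx3cr1*, the fractalkine receptor, was at 1.71, 2.4 and 2.05 and 0.338, 0.647 and 0.494 (-1.88 ± 0.27, adjusted p = 1.84e-04). In both genes the groups were apart.

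*Mrc1*, the mannose receptor, was at 80.7, 176 and 146 FPKM in control and 22.5, 28.3 and 126 after LPS. Replicate 3 lay among the controls, and the call (-1.56 ± 0.54) was lost without LPS 72 h replicate 1 (-1.09), replicate 2 (-1.26), control replicate 2 (-1.33) or control replicate 3 (-1.46). *Cd163*, the haemoglobin receptor, was at 1.92, 5.21 and 2.87 FPKM in control and 0.0832, 0.419 and 2.74 after LPS (-2.29 ± 0.79), a call lost without any of the same 4 samples, at -1.38 to -2.34. The member called higher was *Adgre1*, which encodes the macrophage antigen F4/80, at 199, 322 and 218 FPKM in control and 356, 551 and 1102 after LPS (1.31 ± 0.35). *Csf1r*, the receptor for M-CSF, was not called (0.24 ± 0.14, adjusted p = 0.189).

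Among 37 myeloid transcription factors, 8 were called higher and 10 lower. The factor that defines the lineage, *Spi1* (PU.1), was at 191, 178 and 165 FPKM in control and 189, 166 and 178 after LPS (0.00 ± 0.12, adjusted p = 0.994). *Cebpb* (1.21 ± 0.13) and *Hif1a*, the subunit of the hypoxia-inducible factor (1.69 ± 0.18), rose. *Pparg*, a nuclear receptor of lipid metabolism, fell from 9.96, 12.6 and 15.7 FPKM to 1.68, 2.41 and 1.65 (-2.67 ± 0.21, adjusted p = 2.90e-06). The members with the largest falls, *Myb* (-4.80 ± 0.47), *Gfi1* (-3.91 ± 0.45) and *Cebpe* (-3.57 ± 0.44), are factors of haematopoietic and granulocyte precursors.

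Of 26 glycolysis genes, 8 were called higher and 2 lower (median 0.46), or 6 and 3 without LPS 72 h replicate 3. The glucose transporter *Slc2a1* rose from 24.9, 17.3 and 19.98 FPKM to 56.1, 70.5 and 58.3 (1.58 ± 0.19, adjusted p = 4.17e-05), and *Tpi1*, triosephosphate isomerase, from 263, 185 and 185 to 608, 589 and 603 (1.53 ± 0.19). Both were tight within groups. *Hk2* (0.26 ± 0.15) and *Ldha* (0.53 ± 0.20) were not called, although *Ldha* was without control replicate 1 (0.70).

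Of 24 citrate cycle enzymes, 1 was called higher and 3 lower, with the largest fall in *Idh2* (-0.85 ± 0.18). The count of 3 was 1 without control replicate 2 or 3. Of 29 genes of cholesterol synthesis and efflux, 1 was called higher and 2 lower. The higher gene was *Abca1*, the exporter of cellular cholesterol, at 17.7, 22.9 and 20.8 FPKM in control and 100.3, 117 and 103 after LPS (2.38 ± 0.24, adjusted p = 1.44e-05), and *Fdps*, farnesyl diphosphate synthase, was lower (-1.39 ± 0.25). Of 30 lysosomal genes, 4 were called higher and 5 lower (median 0.08), which is the median of all genes, and 7 and 8 without replicate 3. Without replicate 1, 2 were higher.

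Matrix metalloproteinases and their inhibitors were split, 5 higher and 5 lower of 19. The count of higher members was 2 without LPS 72 h replicate 2 and 3 without control replicate 3. *Serpinb2*, an inhibitor of plasminogen activators, rose from 10.1, 3.43 and 6.1 FPKM to 184, 213 and 58.5 (4.44 ± 0.56), and *Mmp14*, a membrane-bound collagenase, from 68, 31.6 and 17.2 to 109.6, 126 and 171 (2.0 ± 0.42). *Mmp12*, the macrophage elastase, fell from 254, 183 and 396 to 102, 100.2 and 80.2 (-1.49 ± 0.34). Of 26 osteoclast genes, 6 were called higher, *Mmp14* and *Ctsk* among them, and 4 lower (median 0.28). The master regulator *Nfatc1* was at 6.24, 7.67 and 9.31 FPKM in control and 7.03, 6.45 and 6.81 after LPS (-0.17 ± 0.26, adjusted p = 0.635), and the RANKL receptor *Tnfrsf11a* fell by 0.92.

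Genes of DNA replication and mitosis fell almost as a whole. Of 46 members, 44 were called lower and none higher (limma), with a median of -2.94. Without replicate 3 and with limma voom the counts were also 44 and 0, and at an unadjusted p under 0.05, 45 were lower and 0 higher. *Ccna2* (chr3:36564865-36573038), cyclin A2 of S phase and mitosis, was at 17.9, 18.4 and 29.8 FPKM in control and 0.461, 0.433 and 3.37 after LPS (-4.41 ± 0.52, adjusted p = 4.14e-05). *Mki67*, which encodes the proliferation antigen Ki-67, was at 14.6, 17.1 and 31.1 and 1.27, 2.16 and 4.58 (-3.03 ± 0.36, adjusted p = 4.63e-05). *Kif11*, whose promoter is printed above, was at 9.999, 9.86 and 15.94 and 0.263, 0.494 and 2.08 (-3.92 ± 0.46). In all 3 genes replicate 3 kept the most of the LPS samples and lay below every control sample.

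The log2 change was -1.23 ± 0.23 in *Pcna*, the sliding clamp of DNA replication, -1.58 ± 0.24 in *Mcm2*, a subunit of the replicative helicase, and -4.23 ± 0.61 in the mitotic cyclin *Ccnb1*. *E2f1* (0.19 ± 0.15, adjusted p = 0.368) and *Ccne1* (-0.85 ± 0.35) were the members not called, although *Ccne1* was called lower without LPS 72 h replicate 3 (-1.20) or control replicate 1 (-1.11). *Myc*, a driver of cell growth, fell from 21.5, 23 and 17.2 FPKM to 3.19, 6.54 and 4.42 (-2.15 ± 0.25). The summed level of the granulocyte precursor markers fell along with these genes, and its part in their change was not tested.

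The 72 h state was next set against 4 h of the same stimulus. Between LPS 72 h and LPS 4 h, 5186 genes were called higher (44.2%) and 1631 lower (13.9%), 58.1% in all, with a median of 0.52 over all genes. Once samples were centred on their median gene, the counts were 2209 and 3224, so directions depend on the scaling. The counts of lower members given below were as large or larger after centring, and the members called higher in the cytokine, feedback and cell cycle lists were no longer so. Inflammatory cytokines were lower at 72 h than at 4 h in 17 of 24 members and higher in 1. *Tnf* was at 2495, 1698 and 1716 FPKM at 4 h, and its 72 h level lay 5.11 lower on the log2 scale (SE 0.24, adjusted p = 6.77e-09). *Il6* was at 262, 276 and 279 at 4 h and differed by -4.19 ± 0.50. Both lay between the levels in control and at 4 h.

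Other genes raised at 72 h were not called lower than at 4 h, or were higher. *Cxcl3* (-0.37 ± 0.81, adjusted p = 0.701) and *Ptges* (0.15 ± 0.28, adjusted p = 0.656) were not called between the 2 times, nor with samples centred on their median gene (-1.02 and -0.50). *Csf3* was not called (-0.62 ± 0.40, adjusted p = 0.192) but was called lower at 72 h once samples were centred (-1.26). *Saa3* was higher at 72 h, by 1.82 ± 0.39 (1.17 once centred), than its 4 h values of 2399, 2693 and 2836 FPKM. *Arg1* was at 26.9, 18.6 and 5.2 FPKM at 4 h and was higher at 72 h by 4.01 ± 0.75 (adjusted p = 3.40e-04), or by 3.37 once centred.

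Against the same control samples, 4 h of LPS raised 21 of the 24 cytokines, 22 of 28 feedback inhibitors, 16 of 43 interferon-stimulated genes and 15 of the 16 GTPases, where 8.43% of all genes were called higher and 39.7% lower, 48.1% in all. Feedback inhibitors were lower at 72 h than at 4 h in 20 of 28 members and higher in 1, and *Irak3*, at 44.3, 41 and 57.2 FPKM at 4 h, was not called between the times (0.27 ± 0.17, adjusted p = 0.178). Interferon-stimulated genes were lower at 72 h in 40 of 43 members (limma, median -1.57), and also in 40 at an unadjusted p under 0.05, with 0 higher by either count. *Cxcl10* showed the largest difference of the genes in the lists, 5227, 4885 and 4559 FPKM at 4 h against 4.56, 17.4 and 6.5 at 72 h (-9.23 ± 0.82, adjusted p = 6.40e-07). *Ifnb1*, at 50.5, 21.2 and 12.6 FPKM at 4 h, differed by -7.67 ± 0.73. Of the 16 GTPases, 13 were lower at 72 h and 1 higher.

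**Figure D4:**
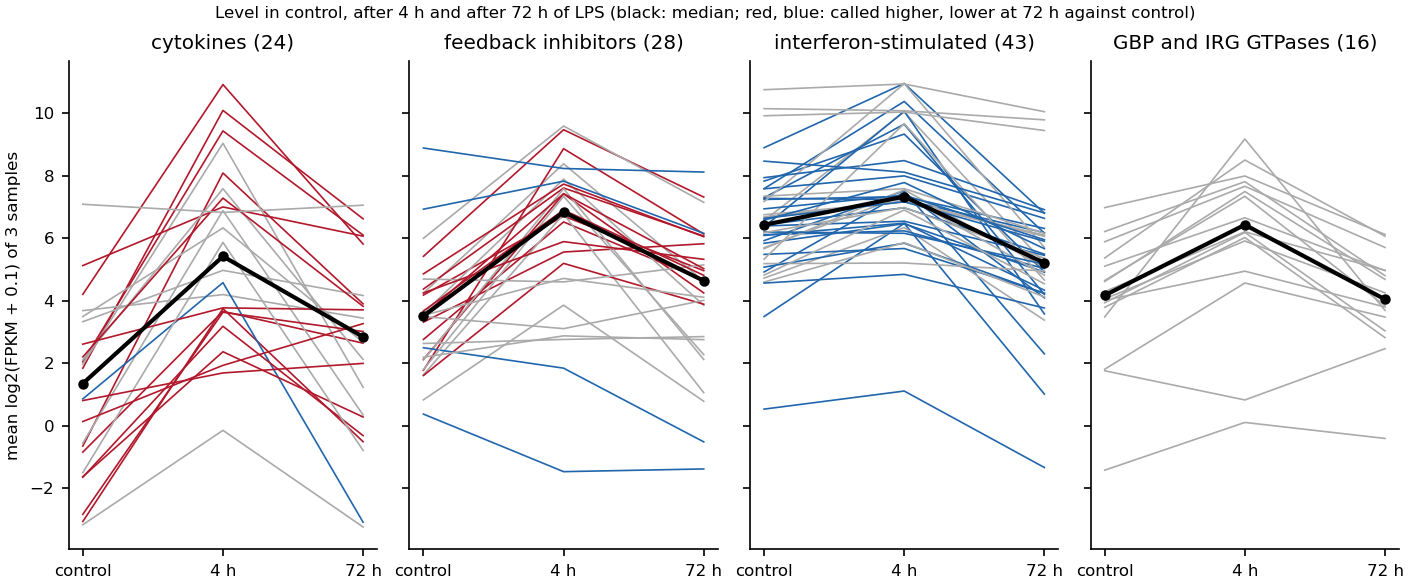
Mean log2(FPKM + 0.1) of 3 samples in control, after 4 h and after 72 h of LPS for the members of 4 lists, each thin line 1 gene, coloured by its call at 72 h against control (red higher, blue lower, grey not called), with the list's median in black. The medians of the 4 lists are highest at 4 h, and at 72 h that of cytokines and of feedback inhibitors lies above control, that of interferon-stimulated genes below it and that of GBP and IRG GTPases near it.

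The transcription factor *Cebpa*, of myeloid differentiation, was low at 4 h and not at 72 h. It was at 72.8, 82.5 and 75.4 FPKM in control, 8.84, 9.28 and 14.4 at 4 h and 119, 124 and 64.9 at 72 h, a difference of 3.21 ± 0.28 between the times (adjusted p = 6.22e-07). Against control at 72 h it was not called (0.36 ± 0.28). Cell cycle genes were lower at 72 h than at 4 h in 39 of 46 members and higher in 1.

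At the same time in culture, LPS and RANKL gave different states. Between LPS 72 h and RANKL 72 h, 1538 genes were called higher under LPS (13.1%) and 2711 lower (23.1%), 36.2% in all. With samples centred on their median gene the counts were 2096 and 2213. Osteoclast genes were lower under LPS in 19 of 26 members and in none higher (limma), with 0 higher also at an unadjusted p under 0.05. *Ctsk*, the collagen-degrading protease of osteoclasts, was at 987, 532 and 1661 FPKM under RANKL and 156, 74 and 34.6 under LPS (-3.69 ± 0.53, adjusted p = 8.15e-05). It was nonetheless above its control values of 32.9, 15.5 and 23.5 FPKM (1.68 ± 0.53), a call lost without LPS 72 h replicate 1 (1.14) or 2 (1.68) or control replicate 2 (1.40) or 3 (1.70).

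Cell cycle genes were lower under LPS in 45 of 46 members, with a median of -3.86. The control comparison of each stimulus used the same control samples. In it, 44 of these genes were lower and none higher after 72 h of LPS, and after 72 h of RANKL 19 were higher and none lower (limma), with 28 higher and 1 lower at an unadjusted p under 0.05. Of all genes tested, 16.6% were called higher and 7.54% lower after 72 h of RANKL. *Ccna2* was at 34.1, 50.5 and 46.1 FPKM under RANKL. Glycolysis genes were lower under LPS than under RANKL in 17 of 26, citrate cycle enzymes in 13 of 24, and cholesterol genes in 18 of 29. Against control, limma called 19, 14 and 17 members of these lists higher after 72 h of RANKL, and 1, 0 and 1 lower. At an unadjusted p under 0.05, 0 citrate cycle enzymes were lower. After 72 h of LPS, 8, 1 and 1 were called higher and 2, 3 and 2 lower.

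Interferon-stimulated genes were low in both 72 h groups. Against control, 26 of 43 were lower after 72 h of LPS and 37 after 72 h of RANKL. Between the 2, 9 were higher and 1 lower under LPS (median 0.52). *Ifit3* was at 20.7, 30.3 and 19.3 FPKM under RANKL and did not pass the test between the groups (0.39 ± 0.71, adjusted p = 0.679). *Irf7* was at 684, 773 and 645 FPKM under LPS and 186, 252 and 182 under RANKL (1.77 ± 0.29, adjusted p = 2.72e-04). Chemokines and MHC class I genes were higher under LPS than under RANKL, in 9 of 14 CC and 8 of 11 CXC chemokines and in 13 of 20 class I genes. Against control, 72 h of RANKL lowered 8 CC and 5 CXC chemokines and 10 class I genes. It raised 0 in each list by limma, and 0, 1 and 0 at an unadjusted p under 0.05. After 72 h of LPS, 2, 5 and 2 were called higher than control and 2, 1 and 1 lower. *Arg1* was at 129, 132 and 154 FPKM under RANKL and was not called between the 2 (0.70 ± 0.75, adjusted p = 0.471).

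The macrophage label was set beside 12 markers, all above 0 in every group, which does not by itself separate macrophages from other cells. The summed level of the 12 was 7765 to 9604 FPKM in control and 6547, 8301 and 18100 in the LPS 72 h samples. *Lyz2* alone stood at 3712, 5276 and 13800 in the LPS 72 h samples. Of the 12, 3 were called higher, *Adgre1* and *Cd14* among them.

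Markers of other blood cells were also present in control, and those of granulocyte precursors fell with 72 h of LPS. Of 17 markers of granulocyte precursors, 16 were called lower and 1, *Mmp8*, higher, with a median of -6.15. Their summed level was 25370, 8411 and 22210 FPKM in the control samples and 360, 335 and 2102 in the LPS 72 h samples, so that replicate 3 kept the most. The RANKL 72 h samples held 7917, 3920 and 1957 FPKM. *Ngp*, the neutrophilic granule protein (chr9:110419808-110423012), was at 3538, 1002 and 2993 FPKM in control, 3.36, 2.84 and 117 after 72 h of LPS and 1216, 590.3 and 264 after 72 h of RANKL (-7.70 ± 1.11 for LPS against control). The call of *Mmp8*, a collagenase stored in neutrophils (1.30 ± 0.47), was lost without any 1 of the samples except control replicate 3, with values of 0.78 to 1.40.

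**Figure D5:**
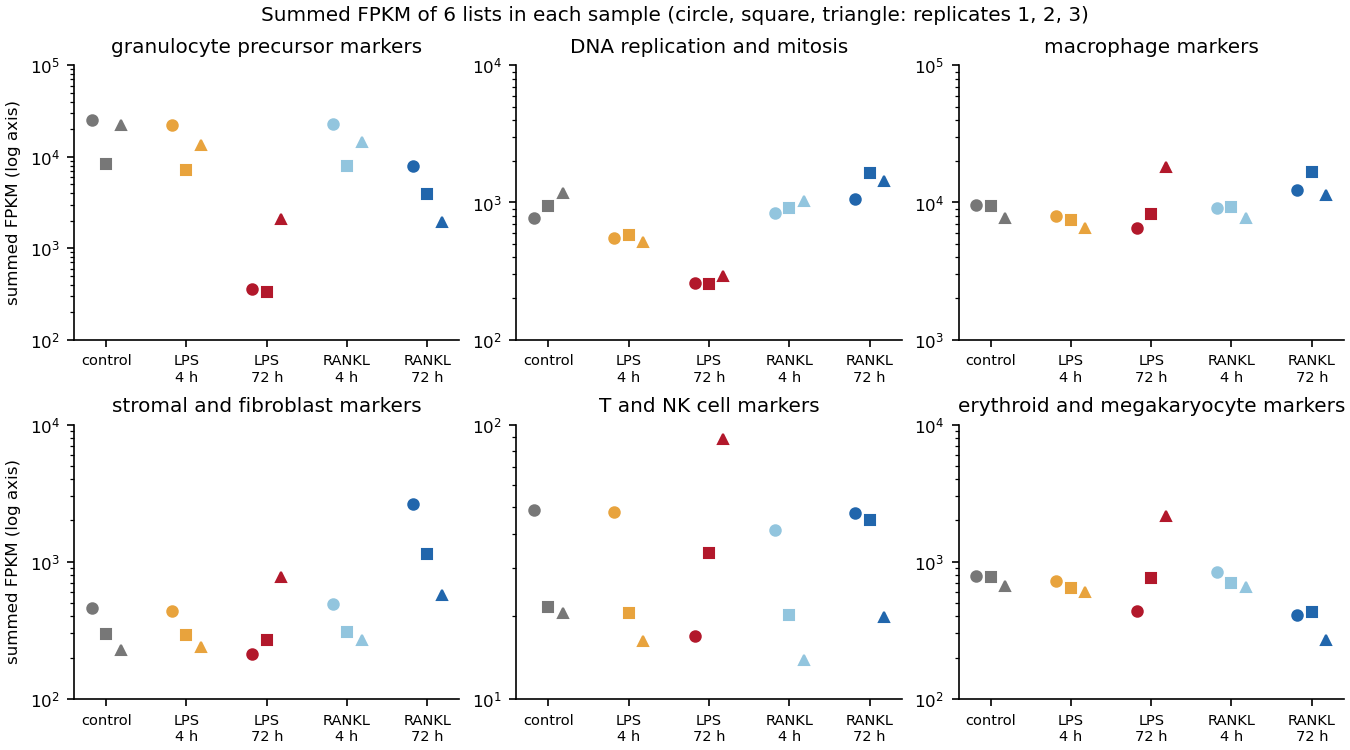
Summed FPKM of 6 marker and pathway lists on a log axis, 1 point per sample in each of the 5 groups. Granulocyte precursor markers drop to 335 to 2102 and replication genes to 254 to 292 after 72 h of LPS, and LPS 72 h replicate 3 (triangle) lies above replicates 1 and 2 in all 6 lists.

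Of 9 basophil and mast cell markers tested 8 were called lower. The summed level of the list was 32.6 to 95.1 FPKM in control and 3.63 to 8.59 after 72 h of LPS. *Fcer1a* and *Il4* were at 0 after 72 h of LPS. So was *Mcpt4*, which was not tested and was also at 0 after 4 h of LPS and of RANKL. *Prss34* is both in this list and in that of granulocyte precursors. Of 14 dendritic cell markers 7 were lower, of 10 B cell markers 7 and of 10 erythroid and megakaryocyte markers 8. After 72 h of RANKL, against the same control samples, 9 basophil, 6 dendritic, 7 B cell and 9 erythroid markers were lower. Between LPS 72 h and RANKL 72 h, limma called no basophil marker, nor did an unadjusted p under 0.05. In that comparison 2 dendritic, 1 B cell and 1 erythroid marker were lower under LPS, and 1 dendritic and 3 erythroid markers higher. The summed level of the B cell list was 84.8 to 111 FPKM in control and 55 to 77.9 after LPS, and that of the dendritic cell list, at 762 to 1810 and 856 to 968, overlapped between the groups. The summed level of the erythroid and megakaryocyte list was 671 to 785.5 FPKM in control and 440.5, 755.8 and 2158 after LPS, so it was not lower throughout and was highest in replicate 3. *Siglech*, a marker of plasmacytoid dendritic cells, had 670 fragments over the control samples and 0 over the LPS 72 h samples. With 3 fragments over the group as the floor, it was at least 220.0-fold lower. Endothelial markers were lower in 4 of 9 and higher in 1, with 1 lower without LPS 72 h replicate 1 or control replicate 1, and adipocyte and osteoblast markers lower in 3 of 8.

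Of 16 T and NK cell markers only *Prf1*, the pore-forming perforin, was called with all samples, higher, at 0.513, 0.249 and 0.53 FPKM in control and 1.4, 9.57 and 13 after LPS (3.49 ± 0.60, adjusted p = 6.29e-04). Like *Gzmf* and *Gzmg*, it was lowest in replicate 1. Without replicate 3, 2 members were also called lower. The summed level of the list was 20.7 to 48.8 FPKM in control and 16.9, 33.9 and 88.5 in LPS 72 h replicates 1, 2 and 3. Of 18 stromal markers, 3 were called higher and 2 lower with all samples, and 1 and 5 without replicate 3, whose summed level of 775 FPKM stood above 212 and 269 in the other two and 229 to 464 in control.

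Granulocyte precursors divide and carry *Myb*, *Gfi1*, *Cebpe* and granule genes, and their markers fell alongside the cell cycle genes after 72 h of LPS. After 72 h of RANKL the granulocyte markers were lower than control in 10 of 17, while cell cycle genes were higher in 19 of 46. How much of the change in any list came from a change in the mixture of cells was not tested.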

How the data were processed

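RNA-seq had been run on 15 samples of bone marrow-derived macrophages in 5 groups of 3. The authors extracted RNA with the RNeasy mini plus kit and made libraries with the SMARTER mRNA-Seq kit. They deposited FPKM values per gene, made with StringTie and Ballgown per the methods of the study. The submitters' processing notes name GRCm38.p4, mm10 and StringTie, and the aligner is not given in the sources used here. Per its methods the study selected genes with edgeR, a count test that was not run on the FPKM values here. Genes alphabetically after *Tti2* were not analysed here.

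The FPKM values were taken to log2 after adding 0.1, and genes that reached a mean of 0.1 FPKM were fitted with limma 3.58.1 (R 4.3.3, lmFit, contrasts and eBayes with trend) on all 15 samples, so that the groups shared an estimate of spread. Called means a fold change above 1.5 or below 0.66 and a Benjamini-Hochberg adjusted p under 0.05 over all genes tested. LPS 72 h was compared with control, LPS 4 h and RANKL 72 h. Whole fragments were recovered from the steps of the FPKM values for 14485 genes, where 100.0% of 198691 values above 0 came out whole within 0.01 fragments, and served as depth and for limma voom as an alternative. On simulated data the recovery gave 2940 of 2940 genes exactly, and the limma fit was also tested on simulated data. Counting error is only part of the spread between samples. Tables and figures were made with Python 3.11.15, numpy 2.4.6, pandas 2.3.3 and matplotlib 3.10.9.

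The gene lists and the members named were chosen with earlier results of these data known. Genes named were the 15 largest rises and the 15 largest falls among called genes whose groups did not overlap and whose higher mean was at least 1 FPKM, up to 8 called members of each list by size of change, members whose role defines a list, and the 10 members of lists in each direction that differed most between LPS 72 h and LPS 4 h. A few of these genes are not reported here by name. A further 14 genes with values, the other genes named within small counts and the promoters printed were chosen after their values were seen. Alternatives were 0.01 or 1 added before the log, a higher or no minimum, equal sums, centring on the median gene, limma voom, no trend, only the groups compared, other thresholds, a replicate block and leaving out each replicate.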

Additional observations from a re-analysis of the deposited data

Results flagged for a closer look

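The response to LPS at 72 h and the responses to LPS at 4 h and RANKL at 72 h were set against each other directly, so that the control level cancels, and the results where limma found a difference are these. LPS 72 h and LPS 4 h differed in 6817 genes, and LPS 72 h and RANKL 72 h in 4249.

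Among list members, large differences of LPS 72 h below LPS 4 h, on the log2 scale with n = 3 per group, were those of *Cxcl10* (-9.23), the cytokine subunit *Il27* (-7.81), *Ifnb1* (-7.67), the granule peptide *Camp* (-7.17), the TNF family member *Tnfsf15* (-6.66), *Il12b* (-6.54), *Cmpk2* (-6.49), *S100a9* (-6.15), the phosphatase *Dusp2* (-5.72) and *Ch25h*, cholesterol 25-hydroxylase (-5.60). Those above LPS 4 h included *Arg1* (4.01), *Cebpa* (3.21), the lysosomal hydrolase *Sgsh* (3.16), *Tm4sf19* (3.08), *Mmp9* (3.05), *Fos* (2.73), *Orm2* (2.68), *Mmp8* (2.53) and *Ctsk* (2.37). *Camp* and *S100a9* are also markers of granulocyte precursors, whose summed level was lower at 72 h than at 4 h of LPS. The part of that level in these differences was not tested.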

How the results depend on the processing

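Of 54 counts over all genes tested, 52 stayed within 1.5 times the reported count. With the fold change required to be above 2 or below 0.5, 1827 genes were called against control (661 higher, 1166 lower) and 2605 against RANKL 72 h (740 and 1865). The count of interferon-stimulated genes called lower (26) was 15 with that threshold and ranged from 15 to 30 when 1 replicate was left out, at 16 without LPS 72 h replicate 1 and 15 without control replicate 1. Against control, 2492 genes were called with 1 added before the log, 2639 with only the groups compared and 3201 with limma voom. Of 217 named genes called, 160 were called in every alternative run, 18 were lost with 1 added, 12 with limma voom, 8 with centred samples, 18 without LPS 72 h replicate 3 and 23 to 37 without each other sample. No called value reversed, and 17 of 735 values of genes not called changed sign. The replicate numbers did not pair control with LPS 72 h (correlations of same-numbered deviations of -0.05 to 0.13, own number best in 1 of 3). They did pair control with LPS 4 h (0.42 to 0.57, own number best in 3 of 3) and with RANKL 4 h (0.56 to 0.75, 3 of 3). The counts of LPS 4 h against control were made without that pairing. With the replicate block 3433 genes were called between LPS 72 h and control (1619 higher, 1814 lower), and none of the 217 calls was lost. It also called *Cd86* higher (0.87), and 3 GTPases higher and 2 lower, among them *Gbp4* (1.67), *Gbp10* (1.02) and *Irgm1* (-0.86). Depth of 18306487 to 20330238 fragments on the genes listed limits genes near 0.1 FPKM. Of 20089 genes, 4453 were at 0 in every sample.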
